A study of Mus musculus with 4 samples.

Results

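The oxidative phosphorylation genes described here are 107 of the 42367 genes listed in the count tables of mouse hematopoietic stem cells (HSCs). They were chosen by name: protein-coding genes whose symbols start with Nduf, Uqcr, Cox4, Cox5, Cox6, Cox7, Cox8 or Atp5, the succinate dehydrogenase genes Sdha, Sdhb, Sdhc and Sdhd, Cyc1, and the 13 protein-coding genes of the mitochondrial genome. Of these, 94 are nuclear and 13 are mitochondrial. By annotation 97 encode subunits, 84 of them nuclear, and the other 10 nuclear genes are the assembly factors Ndufaf1 to Ndufaf8, the coupling factor B gene Atp5s and the paralog Ndufa4l2. RNA of flow-sorted bone marrow cells was sequenced in 4 libraries, with 1 library for each genotype in each population. HSCs were sorted as Lin- cKit+ Sca1+ CD48- CD150+ cells, and for the CD41low/CD9low HSCs the labels name no further gate. The paper's results section instead calls the first population CD41+/CD9+ HSCs, so it is not clear whether the populations overlap. The paper also reported higher CD41 expression in HSCs that lack Gfi1b. Whether the CD41low/CD9low gate took like cells from WT and KO was not tested. According to the methods, all mice carried Rosa-Cre and were given tamoxifen 2 weeks earlier. The KO libraries came from 5 pooled Gfi1b fl/fl mice and the WT libraries from 10 pooled Gfi1b wt/fl mice, so WT cells would also have lost 1 allele. The text deposited with the data instead describes flox/flox mice with or without the Cre, and the sample titles name Gfi1 where the genotype labels name Gfi1b. The mice are C57Bl6, their ages are not given in the sources used here, and Rosa-Cre is not restricted to blood cells.

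Oxidative phosphorylation passes electrons from NADH and succinate through complexes I to IV of the inner mitochondrial membrane to oxygen, and the proton gradient so built drives the ATP synthase, complex V. Most subunits are encoded in the nucleus and imported, whereas the mitochondrial genome encodes core subunits of complexes I, III, IV and V and none of complex II, so the complexes need products of both genomes. Quiescent HSCs are known for a low reliance on this pathway and for turning to it when they are activated.

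All values below compare single libraries, so no test was possible, no difference has a replicate check, and no p-value is given. A KO/WT ratio is the ratio of counts after median-of-ratios scaling of the pair, and the interval beside it is the exact (Clopper-Pearson) 95% interval, which covers counting error and not the spread between mice or sorts. A gene entered a pair's comparison if either library held 10 counts or more of it, and ratios above 1.5 or below 1/1.5 are counted as past 1.5-fold. In bulk RNA, fewer cells of a type and less RNA per cell cannot be told apart.

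The libraries held 12732079 to 50781007 counts on genes, so that 3 counts correspond to 0.0591 to 0.236 CPM (a gene's count relative to all gene counts of its library, scaled up). Reads outside annotated features numbered 80 (WT) and 105.3 (KO) for every 100 gene counts in HSCs, and 62.0 (WT) and 60.1 (KO) in CD41low/CD9low HSCs. Gfi1b, the targeted gene, was counted 9256 times in the WT and 49910 times in the KO library of HSCs, and 611 and 9741 times in those of CD41low/CD9low HSCs. This whole-gene count includes exons outside the floxed part and checks neither the deletion nor the labels. The study examined the floxed exons themselves and reported that their expression was absent in megakaryocytes and HSCs after deletion. That check was not repeated here. All 10 HSC markers on the list were detected in all 4 libraries, with summed levels of 2178 to 2727 CPM. They include Kit, Ly6a (Sca1) and Slamf1 (CD150), on which the cells were sorted, so their detection is no independent check. The neutrophil markers summed to 404 CPM in WT HSCs, 492 CPM in KO HSCs, 1080 CPM in WT CD41low/CD9low HSCs and 277 CPM in KO CD41low/CD9low HSCs, and the erythroid markers to 43.9, 48.8, 152 and 19.2 CPM in the same order. Both were thus highest in the WT CD41low/CD9low library. The megakaryocyte and platelet markers were highest in KO HSCs instead, with 1522, 1805, 492 and 520 CPM in that order, and 7 of 9 had a KO/WT ratio above 1 in HSCs, with a median of 1.28. That list includes Itga2b (CD41) and Cd9, which the CD41low/CD9low gate used. Of the cell cycle genes, 8 of 8 were lower in the KO library in both pairs, with summed levels of 1872 and 1479 CPM in HSCs and 1124 and 807 CPM in CD41low/CD9low HSCs. The part of these differences in the results below was not tested.

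Before the levels, the mitochondrial sequences have to be considered, since 6 of the 13 mitochondrial genes had at most 26 counts in every library. For 5 of them an almost identical copy is annotated in the nuclear genome. The copies lie in 1 block on the reverse strand of chromosome 1 (GRCm38), between 24612407 and 24615565, and the annotation calls them unprocessed pseudogenes. The gene mt-Atp6 (ENSMUSG00000064357, mitochondrial genome, 7927 to 8607, forward strand), which encodes the a subunit of the ATP synthase membrane part, and the pseudogene Gm10925 (chromosome 1, 24613974 to 24614651) matched over 678 aligned bases with 0 mismatches. The first 60 bases of both, from the GENCODE M21 transcripts, show a stretch whose reads cannot be assigned to either:
mt-Atp6: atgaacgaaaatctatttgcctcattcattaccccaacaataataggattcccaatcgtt
Gm10925: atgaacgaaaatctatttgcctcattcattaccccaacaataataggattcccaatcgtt
The gene mt-Nd2, a membrane subunit of complex I, has a more distant copy, Gm13339 on chromosome 2 (22590024 to 22590533, reverse strand), with 17 mismatches over 510 aligned bases. A stretch from base 667 to base 726 of the mt-Nd2 transcript, with the 4 differing bases in capitals, shows a copy from which reads can be told apart:
mt-Nd2: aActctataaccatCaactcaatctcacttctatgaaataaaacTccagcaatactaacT
Gm13339: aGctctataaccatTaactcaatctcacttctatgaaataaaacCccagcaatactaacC

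To measure this for every member, each stretch of 50 bases of its transcript was looked up in the transcripts of all other annotated genes. The share found elsewhere was 100% for mt-Co2, 99.9% for mt-Co3, 99.5% for mt-Atp6, 98.8% for mt-Nd4l and 98.0% for mt-Nd3. These are the 5 genes copied almost whole on chromosome 1, and their counts were 0, 1, 0 and 5 for mt-Co2, 26, 10, 0 and 6 for mt-Co3, 0, 0, 15 and 0 for mt-Atp6, 0, 1, 0 and 0 for mt-Nd3, and 0 in every library for mt-Nd4l, in the order WT HSC, KO HSC, WT CD41low/CD9low HSC, KO CD41low/CD9low HSC. The sixth gene, mt-Atp8, had 0 counts in every library and no 50 bases shared with an annotated gene. It lies between mt-Co2 and mt-Atp6, overlaps the start of mt-Atp6, and the stretch of chromosome 1 between the copies of these genes, Gm28661 and Gm10925, holds no annotated gene in release M21. Reads that aligned to more than 1 place numbered 96.2 to 121.6 for every 100 gene counts in the 4 libraries and were not counted on any gene. The counts of the 5 genes with almost identical copies therefore do not measure their expression, and why mt-Atp8 had 0 counts was not tested. The levels and ratios below rest on the 7 others, mt-Nd1, mt-Nd2, mt-Nd4, mt-Nd5, mt-Nd6, mt-Cytb and mt-Co1. Among these 7, mt-Nd4 and mt-Co1 still shared 62.2% and 51.1% of their stretches with other genes, in part with partial copies beside the same block of chromosome 1 (Gm28439 and Gm29216), while mt-Nd1, mt-Nd6 and mt-Cytb shared none.

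**Figure D1:**
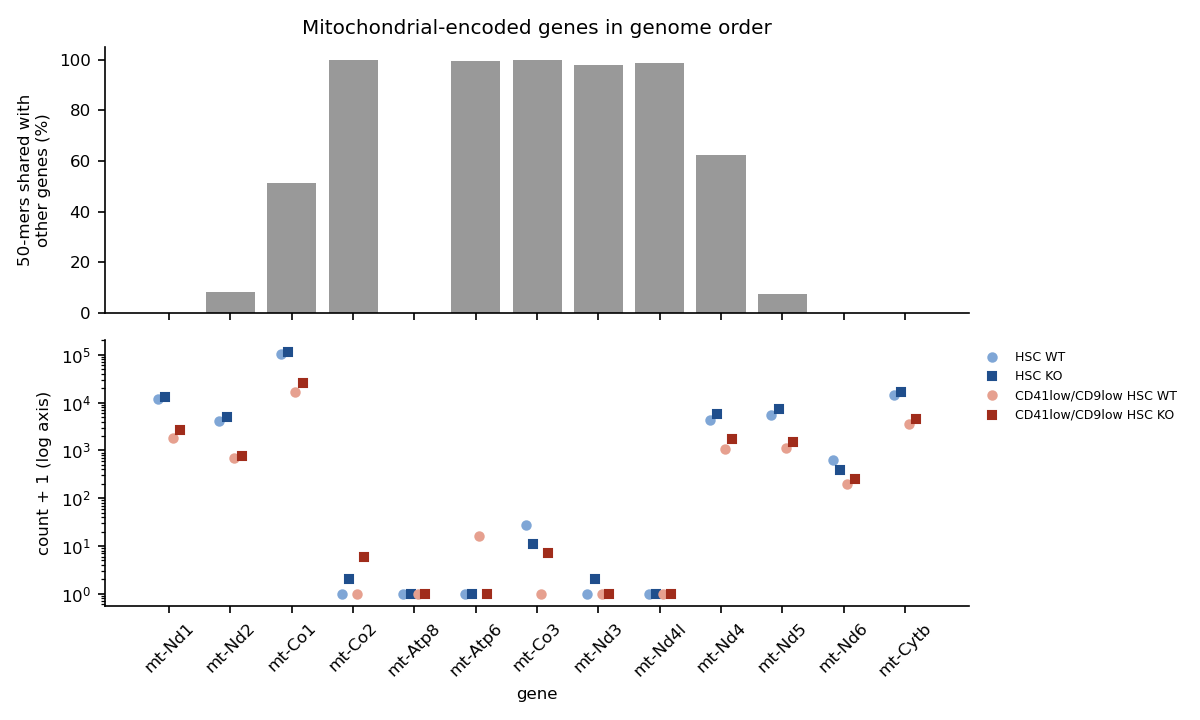
The 13 mitochondrial protein-coding genes in genome order: the upper bars give the percent of 50-base stretches shared with other annotated genes, and the points below give the count plus 1 in each of the 4 libraries on a log axis. The 5 genes whose bars reach 98.0% or more, and mt-Atp8, stay at 26 counts or fewer, and the other 7 genes have 195 counts or more in every library.

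Of all gene counts, the 94 nuclear members took 0.773% in WT and 0.641% in KO HSCs, and 0.799% in WT and 0.760% in KO CD41low/CD9low HSCs. The 13 mitochondrial genes took 0.289%, 0.389%, 0.195% and 0.191% in the same order. These sums rest almost wholly on the 7 counted genes and leave out reads with several alignments. Neither these shares nor the ratio to nuclear counts below therefore measures the level of all 13 messages. The counting intervals of the WT and KO shares overlap for the mitochondrial genes in CD41low/CD9low HSCs and not in the other 3 comparisons. For every 100 counts on nuclear members there were 37.4 mitochondrial counts in WT HSCs, 60.7 in KO HSCs, 24.4 in WT CD41low/CD9low HSCs and 25.2 in KO CD41low/CD9low HSCs. The KO HSC library thus stood above the other 3 libraries in this ratio, with a lower share of nuclear and a higher share of mitochondrial messages than its WT library. The mitochondrial ribosomal RNAs mt-Rnr1 and mt-Rnr2, which the same genome encodes, took 2.03%, 1.35%, 0.653% and 0.502% of counts in the same order of libraries. They were lower in both KO libraries, with KO/WT ratios of 0.542 (0.536 to 0.548) and 0.566 (0.548 to 0.584) for mt-Rnr1 and of 0.686 (0.684 to 0.689) and 0.792 (0.785 to 0.800) for mt-Rnr2. In HSCs the ribosomal RNAs of the mitochondrial genome were therefore lower and its summed messages higher in KO than in WT. The message mt-Nd6 was lower too, with a ratio of 0.781. Copies of the ribosomal RNA genes elsewhere in the genome were not looked up. The part of the poly(A) selection of the libraries in the ribosomal RNA counts was not tested.

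**Figure D2:**
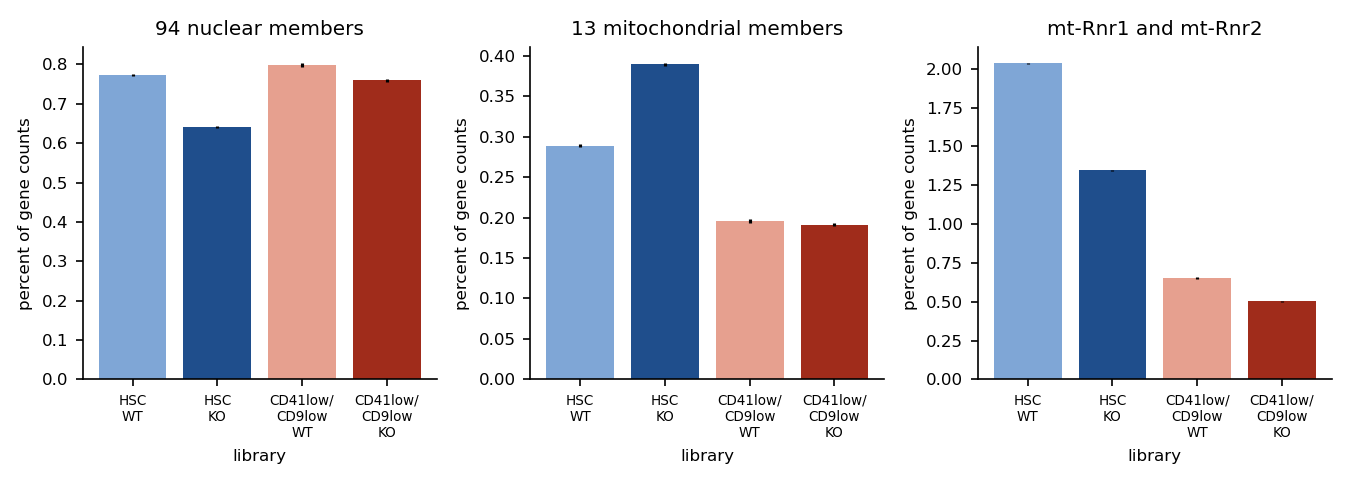
Percent of all gene counts in each library on the 94 nuclear members, the 13 mitochondrial members and the mitochondrial ribosomal RNAs, as bars from 0 with exact 95% binomial intervals for counting error. In HSCs the nuclear share is lower (0.641% against 0.773%) and the mitochondrial share higher (0.389% against 0.289%) in KO than in WT. Reads with several alignments are not counted, so the mitochondrial bars do not measure the level of all 13 messages.

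In HSCs most nuclear members had a lower normalized count in KO than in WT, by a small and even amount. Of the 94, 88 passed the filter on low counts, 78 of them with a ratio below 1 and 10 with a ratio above 1, whereas 50% of the 15910 genes tested lay below 1 and 50% above 1. None was past 1.5-fold in either direction, with 0 of 88 above 1.5 and 0 of 88 below 1/1.5, against 14.1% and 12.7% of all genes tested. The median log2 KO/WT ratio was -0.21, a ratio of 0.866, beside 0.00 for all genes, and the quartiles were -0.30 and -0.12. The counting interval lay wholly below 1 for 69 members and wholly above 1 for 3, against 33.7% and 35.6% of all genes tested. The members also lay close together, with an SD of log2 ratios of 0.16 against 0.84 for all genes. Their counting error was smaller too, with a median half-width of the interval of 0.085 on the log2 scale against 0.125. The lowest ratio was 0.700, for Cox5b, and the highest 1.186, for Ndufab1.

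The HSC ratios of all genes followed exon length, and most nuclear members are short, which bears on this median. In 20 bins of genes ordered by merged exon length, the median log2 ratio was -0.23 in the bin with a median length of 881 bases and 0.28 in the bin with a median length of 14656 bases. The nuclear members that passed had a median exon length of 1737 bases. After subtraction of the median of the 500 genes nearest in length, their median log2 ratio in HSCs was -0.07, with 57 below and 31 above 0, and with the principal transcript's length in place of the merged exons it was -0.04, with 53 below and 35 above. The direction of 21 members, or 25 with the principal transcript, thus changed with this correction. Of the genes named before the flagged results, Cox5a, Cox7a2l, Cox7c, Cox8a, Ndufa5 and Uqcrfs1 changed from below to above 1 in HSCs with either length. Cox6a1 and Ndufa4 did so with the principal transcript alone. Among the genes named only in the flagged results, Atp5e and Ndufa9 also changed in this way with merged exons, to 1.012 and 1.003. Most of the lower nuclear median in HSCs was thus also seen in other genes of the same length. Within the 88 nuclear members, however, the HSC log2 ratio did not rise with log2 exon length. Pearson's r was -0.082 and Spearman's rho was -0.115. The part of length in the lower median was not tested. In the CD41low/CD9low pair 4 or 7 members changed direction with the correction, and the bin medians ran from -0.11 at a median length of 498 bases to 0.02 at 14975 bases.

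**Figure D3:**
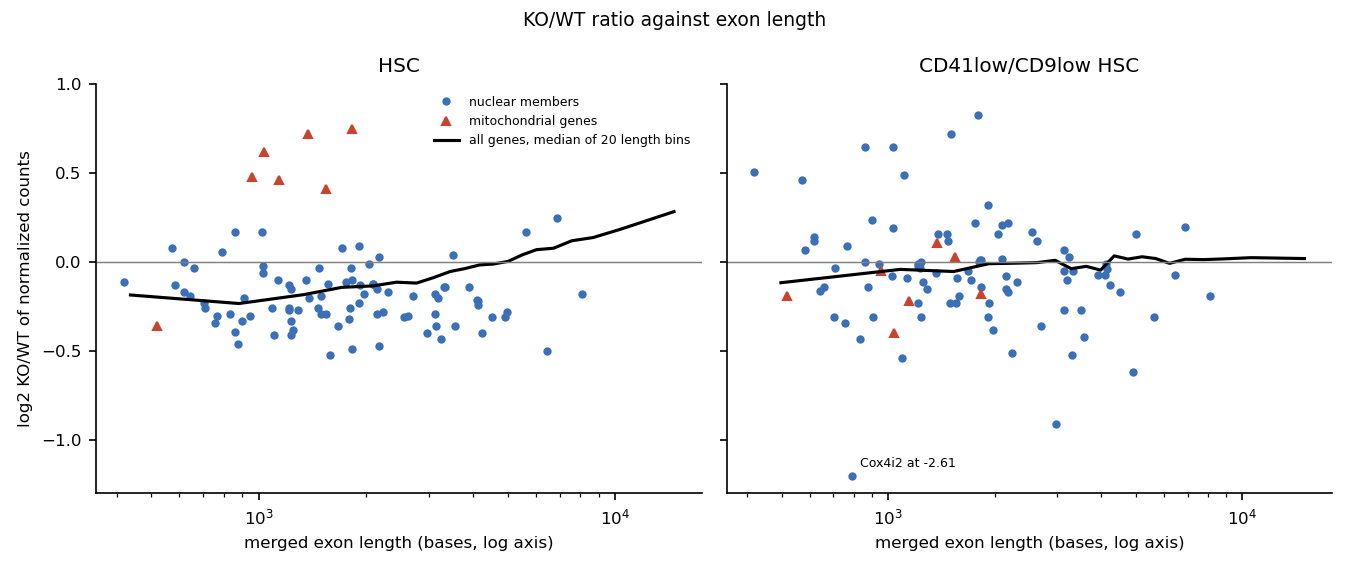
Log2 KO/WT ratio of normalized counts against merged exon length in bases (log axis) for nuclear members (circles), counted mitochondrial genes (triangles) and, as a line, the median of all genes in 20 length bins. In HSCs the line rises with length and most nuclear members lie near or below it, while 6 of the 7 mitochondrial genes lie above it; Cox4i2 is drawn at the lower edge of the right panel, with its log2 ratio of -2.61 written beside it.

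By complex, the medians of the log2 KO/WT ratios in HSCs were -0.18 for complex I, -0.34 for complex II, -0.22 for complex III, -0.25 for complex IV, -0.25 for complex V and -0.15 for the assembly factors and Atp5s. Every member that passed was below 1 in complex II (4 of 4), complex III (9 of 9) and complex V (16 of 16), as were 13 of 14 in complex IV, 28 of 36 in complex I and 8 of 9 assembly factors and related genes. After the correction for length the medians were -0.03, -0.24, -0.16, -0.04, -0.10 and -0.06 in the order of the complexes with the assembly factors last. Complex II, whose 4 subunits are all nuclear, thus remained the lowest, with 4 of 4 members below 0 on the corrected log2 scale. The 7 nuclear core subunits of complex I had a median of -0.18 and the 29 supernumerary subunits, which surround the core, one of -0.14.

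Complex I oxidizes NADH. Its flavin-binding subunit gene Ndufv1 had 99.6 CPM in WT and 79.6 CPM in KO HSCs, and 111 CPM in WT and 120 CPM in KO CD41low/CD9low HSCs. The ratios in this order of the populations were 0.810 (0.775 to 0.847) and 1.085 (1.015 to 1.160), below 1 in one pair and above 1 in the other. Ndufs1, the largest iron-sulfur subunit of the electron input module, had ratios of 0.881 and 0.878, and its partner Ndufv2 had 0.818 and 0.898, both below 1 in both pairs. Of the iron-sulfur subunits that pass electrons on towards the membrane arm, Ndufs8 had 0.831 and 0.899 and Ndufs7 had 1.055 (0.989 to 1.124) and 0.933 (0.845 to 1.031), both intervals of Ndufs7 including 1. Ndufab1, the mitochondrial acyl carrier protein, which serves lipoylation and cluster assembly as well as complex I, was above 1 in both pairs. It had 29.2 CPM in WT and 34.2 CPM in KO HSCs and 29.9 and 34.4 CPM in CD41low/CD9low HSCs, with ratios of 1.186 (1.102 to 1.276) and 1.150 (1.012 to 1.308).

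Complex II is the succinate dehydrogenase of the citric acid cycle. Its catalytic flavoprotein gene Sdha had 338 CPM in WT and 282 CPM in KO HSCs and 329 and 326 CPM in CD41low/CD9low HSCs, with ratios of 0.844 (0.825 to 0.864) and 0.993 (0.955 to 1.033). Sdhc, a membrane anchor, had ratios of 0.745 (0.710 to 0.781) and 1.020 (0.954 to 1.090). The other anchor gene, Sdhd, had 0.755 (0.725 to 0.786) and 0.977 (0.911 to 1.048), and the iron-sulfur subunit gene Sdhb had 0.821 (0.781 to 0.864) and 0.703 (0.653 to 0.757). In HSCs all 4 intervals lay below 1, and in CD41low/CD9low HSCs only that of Sdhb did.

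In complex III, the cytochrome bc1 complex, the gene of the catalytic cytochrome c1, Cyc1, had 51.8 and 45.9 CPM in WT and KO HSCs and 47.2 and 44.7 CPM in CD41low/CD9low HSCs. Its ratios were 0.899 (0.848 to 0.954) and 0.948 (0.854 to 1.054). The Rieske iron-sulfur protein gene Uqcrfs1 had 0.936 (0.890 to 0.984) and 0.962 (0.886 to 1.045). The core protein genes differed in the second population, since Uqcrc1 had 0.859 and 0.974, and Uqcrc2 had 0.805 (0.780 to 0.831) and 1.128 (1.059 to 1.201).

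In complex IV, cytochrome c oxidase, Cox5b was the nuclear member with the lowest ratio in HSCs. It had 55.4 CPM in WT and 38.3 CPM in KO HSCs and 93.0 and 81.4 CPM in CD41low/CD9low HSCs, giving 0.700 (0.658 to 0.744) and 0.876 (0.812 to 0.946). Cox6c had 0.780 and 0.748, and Cox4i1, the ubiquitous form of the subunit that mediates regulation by ATP, had 0.819 and 0.850. The small subunit genes Cox5a with 0.921 and 1.011, Cox7c with 0.931 and 0.939 and Cox8a with 0.998 and 1.086 lay closer to 1. Cox7c shared 53.0% of its 50-base stretches with other genes, so that its count is uncertain.

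Complex V makes ATP. The genes of its catalytic beta subunit, Atp5b, and of its alpha subunit, Atp5a1, were the most abundant nuclear members per merged exon length in each of the 4 libraries. With the principal transcript's length, Cox4i1 lay above Atp5a1 in WT CD41low/CD9low HSCs, with 390.5 against 366.9 CPM per kb. Atp5b had 239 CPM per kb of exon in WT HSCs, 180 in KO HSCs, 226 in WT and 207 in KO CD41low/CD9low HSCs, and Atp5a1 had 320, 259, 289 and 279 in the same order. Their ratios were 0.760 (0.750 to 0.771) and 0.917 (0.896 to 0.939) for Atp5b and 0.819 (0.808 to 0.831) and 0.967 (0.944 to 0.990) for Atp5a1. The WT library was the higher one in both pairs. Atp5c1, which encodes the rotating central stalk, had 0.850 and 0.804. The c ring is encoded by 3 genes that differ in their import sequence. Atp5g1 had ratios of 0.807 (0.756 to 0.862) and 0.650 (0.582 to 0.727), Atp5g3 had 0.723 (0.695 to 0.752) and 0.889 (0.821 to 0.963), and Atp5g2 had 0.777 and 0.963 but shared 87.4% of its stretches with other genes. Atp5l was the only other nuclear member that shared at least 50% of its stretches, with 68.5%.

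**Figure D4:**
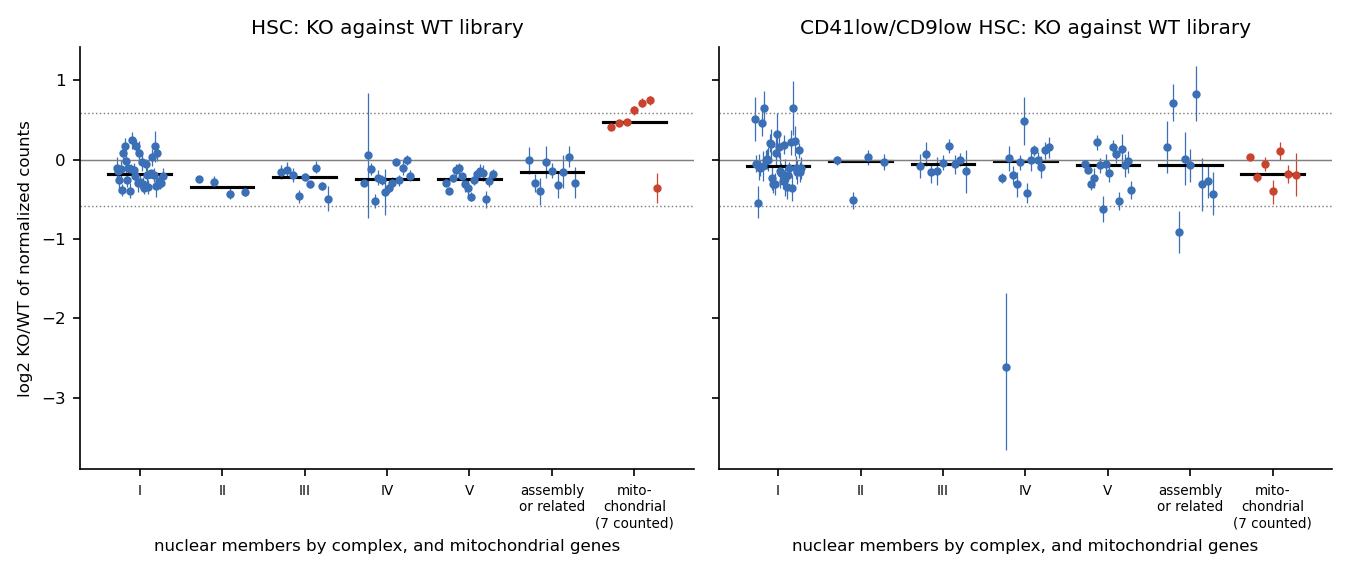
Log2 KO/WT ratio of normalized counts for each nuclear member that passed the filter, by complex, and for the 7 counted mitochondrial genes, with exact 95% intervals for counting error. Black bars are medians, and dotted lines mark 1.5-fold. In HSCs no nuclear member passes a dotted line and 3 mitochondrial genes do, and in CD41low/CD9low HSCs 7 nuclear members and 0 counted mitochondrial genes do.

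The mitochondrial messages were higher in KO than in WT HSCs, unlike the nuclear ones. Of the 13 genes, 8 passed the filter in HSCs, among them mt-Co3 with its 26 and 10 counts. Their median log2 KO/WT ratio was 0.47, a ratio of 1.386, with 3 above 1.5 against 14.1% of all genes tested and 1, mt-Co3, below 1/1.5 against 12.7%. Over the 7 counted genes the median was 0.48, with 6 above 1 and 1 below 1. The median of the mitochondrial members lay 0.68 above that of the nuclear members on the log2 scale, a difference that no scaling of the libraries changes. The mitochondrial messages are short too, and relative to genes of similar length the median of the 7 was 0.71.

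Of the 6 genes that shared this direction, 4 encode subunits of the membrane arm of complex I. The gene mt-Nd5 had 5377 counts (106 CPM) in WT and 7303 counts (175 CPM) in KO HSCs, a ratio of 1.676 (1.618 to 1.737). For mt-Nd4 the counts were 4396 and 5884, a ratio of 1.652 (1.588 to 1.718), and for mt-Nd2 they were 4077 and 5069, a ratio of 1.535 (1.472 to 1.600). These were the 3 genes above 1.5. The gene mt-Nd1, with 11690 and 13190 counts, had a ratio of 1.393 (1.358 to 1.428). Cytochrome b, the electron-carrying core of complex III, is encoded by mt-Cytb, which had 14649 and 16372 counts and a ratio of 1.379 (1.349 to 1.411). The catalytic subunit of complex IV is encoded by mt-Co1 (ENSMUSG00000064351, mitochondrial genome, 5328 to 6872), which had 105912 and 114073 counts (2086 and 2736 CPM) and a ratio of 1.329 (1.318 to 1.341). It held most of the mitochondrial counts in every library.

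The exception was mt-Nd6 (13552 to 14070), the only protein-coding gene on the other strand of the mitochondrial genome, with 623 counts in WT and 394 in KO HSCs and a ratio of 0.781 (0.686 to 0.887). The library kit keeps the strand, but the strand setting of the counting is not given in the sources used here, so reads of mt-Nd6 and reads antisense to it cannot be told apart.

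In CD41low/CD9low HSCs the mitochondrial genes showed no such excess over the nuclear ones. The 7 counted genes had a median log2 KO/WT ratio of -0.18, with 2 above and 5 below 1, and relative to genes of similar length it was -0.06. Counting mt-Atp6, which passed only through its 15 counts in the WT library, 8 genes passed, with 0 above 1.5 against 13.5% of all genes tested and 1, mt-Atp6, below 1/1.5 against 14.3%. The median of these 8 minus that of the nuclear members was -0.12 on the log2 scale. After the correction for length, which leaves out mt-Atp6 and so covers the 7 counted genes, it was -0.03. The gene mt-Nd2 had 685 and 777 counts in WT and KO, a ratio of 0.756 (0.682 to 0.839). For mt-Nd5 the counts were 1136 and 1502, a ratio of 0.881 (0.816 to 0.953), and for mt-Cytb 3518 and 4522, a ratio of 0.857 (0.820 to 0.896). These 3 genes, above 1 in HSCs, had intervals below 1 here. The ratio was 1.021 (1.001 to 1.041) for mt-Co1, 0.964 (0.908 to 1.024) for mt-Nd1, 1.078 (0.999 to 1.164) for mt-Nd4 and 0.879 (0.727 to 1.064) for mt-Nd6, from 16406 and 25115, 1824 and 2637, 1092 and 1766, and 195 and 257 counts.

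The nuclear members of CD41low/CD9low HSCs lay nearer to 1 and were more spread than in HSCs. Of the 88 that passed, 55 had a ratio below 1 and 33 above 1, against 49% and 50.9% of the 14844 genes tested. The median log2 ratio was -0.06, a ratio of 0.958, beside 0.01 for all genes, and -0.03 relative to genes of similar length. There were 4 members above 1.5, against 13.5% of all genes tested, and 3 below 1/1.5, against 14.3%. The counting interval lay below 1 for 31 members and above 1 for 21, against 30.4% and 31.1% of all genes. By complex, the medians were -0.09, -0.02, -0.06, -0.02 and -0.07 for complexes I to V and -0.07 for the assembly factors and Atp5s. The SD of the log2 ratios was 0.40, against 0.85 for all genes tested. It was 0.28 over complex I and 0.73 over complex IV, which holds Cox4i2 with its few counts and a log2 ratio of -2.61. Counting error was larger too. The median half-width of the members' intervals was 0.137 on the log2 scale, against 0.085 in HSCs, and 0.187 for all genes tested in CD41low/CD9low HSCs. The part of counting error in the wider spread was not tested.

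The nuclear members past 1.5-fold in CD41low/CD9low HSCs had 12 to 645 counts. Of the 4 higher in KO, Ndufaf5, which modifies the complex I subunit Ndufs7 during assembly, had 97 counts (7.62 CPM) in WT and 258 (13.5 CPM) in KO, a ratio of 1.773 (1.399 to 2.263). Ndufaf1, an assembly factor of the membrane arm, had 216 and 535 counts, a ratio of 1.651 (1.407 to 1.943). In HSCs, both were below 1, with 0.803 (0.717 to 0.899) and 0.816 (0.751 to 0.886). The supernumerary subunit genes Ndufa5 and Ndufs5 had 252 and 593 and 106 and 249 counts, with ratios of 1.569 (1.352 to 1.825) and 1.566 (1.243 to 1.985). Their HSC ratios were 0.987 (0.893 to 1.090) and 1.123 (0.980 to 1.286). Among the 3 lower in KO, Ndufaf2, an assembly factor that is a paralog of a complex I subunit, had 277 and 221 counts and a ratio of 0.532 (0.444 to 0.637). It was below 1 in HSCs too, with 0.757 (0.672 to 0.853). Atp5g1, given above with 0.650, had 645 and 629 counts, just past the limit. The third was the isoform gene Cox4i2.

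Several complex IV subunits exist as a ubiquitous form and a form known from other tissues, and the ubiquitous forms made up nearly all of the signal. Cox4i2, known from lung, had 0.800 and 0.822 CPM per kb of exon in WT and KO HSCs, 4.88 in WT and 0.796 in KO CD41low/CD9low HSCs. In counts these were 32, 27, 49 and 12. The WT CD41low/CD9low library thus stood above the other 3, which lay close together, and the KO/WT ratio there was 0.163 (0.0790 to 0.311), against 1.041 (0.60 to 1.794) in HSCs. Its ubiquitous partner Cox4i1 had 140, 113, 193 and 164 CPM per kb in the same order of libraries. The summed neutrophil and erythroid markers were also highest in that WT library, as given above, though some genes of both lists were not. Their part in the value of Cox4i2 was not tested.

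Cox6b2, known from testis, was the other alternative form that passed the filter. It had 260, 159, 139 and 292 counts, or 4.62, 3.44, 9.85 and 13.8 CPM per kb, with ratios of 0.755 (0.616 to 0.923) and 1.400 (1.140 to 1.727). It was higher in both CD41low/CD9low libraries than in both HSC libraries. Its partner Cox6b1 had 140, 116, 174 and 169 CPM per kb and ratios of 0.834 and 0.977. Forms known from heart and skeletal muscle were at or near 0, with 0, 4, 0 and 0 counts for Cox6a2, 7, 8, 0 and 0 for Cox7a1 and 0 in every library for Cox8b. Cox8c, Cox7b2 and Ndufa4l2 also had 0 counts in every library, which is below 3 counts, the limit that a count of 0 allows. Their ubiquitous partners were all counted. Cox6a1 had ratios of 0.853 and 0.805, Cox7a2 had 0.815 and 0.993, the supercomplex factor gene Cox7a2l had 0.981 and 1.083, and Ndufa4, which is now placed in complex IV despite its name, had 0.869 (0.829 to 0.912) and 1.115 (1.018 to 1.220).

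**Figure D5:**
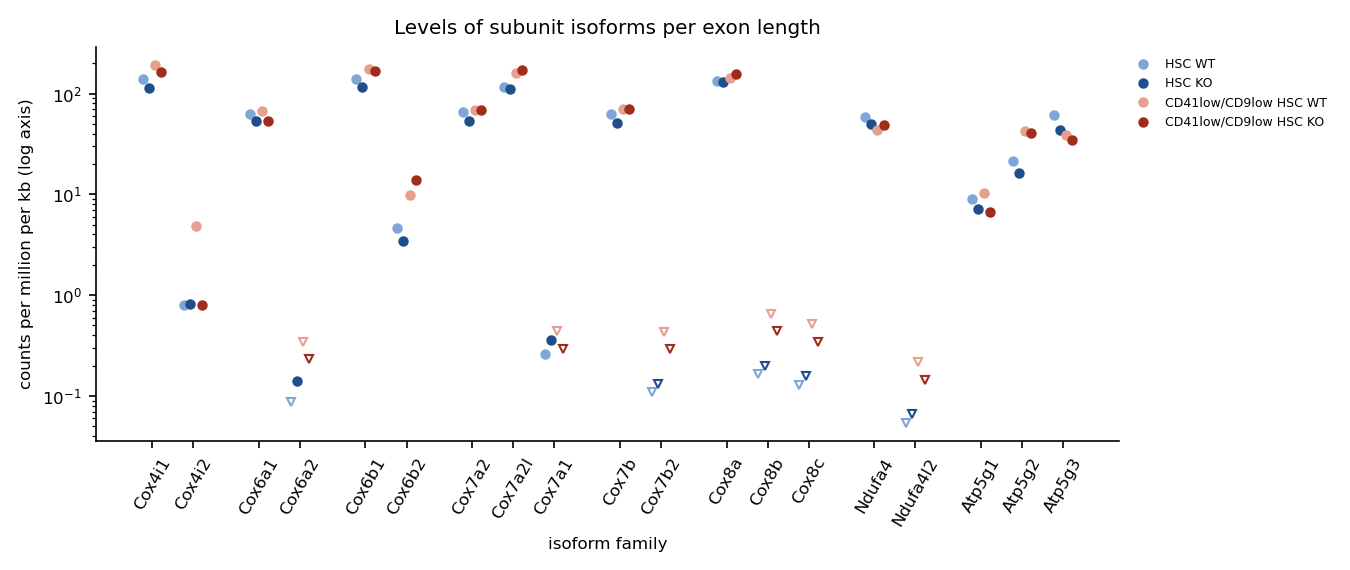
CPM per kb of merged exon (log axis) of the subunit isoform genes in the 4 libraries; open triangles mark genes with 0 counts, drawn at the level of 3 counts. Ubiquitous forms such as Cox4i1 lie above their alternative forms in every library, and Cox4i2 is highest in WT CD41low/CD9low HSCs at 4.88.

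Across the 88 nuclear members, 50 were below 1 in both pairs, 5 were above 1 in both, 28 were below 1 in HSCs and above 1 in CD41low/CD9low HSCs, and 5 were the reverse. With 78 of the 88 below 1 in HSCs and 55 in CD41low/CD9low HSCs, most of this overlap follows from these counts alone. The same shares over all genes are not given here, so the overlap cannot be read as a trait of the members. Across these genes, which are not independent replicates and share their libraries, Pearson's r between the log2 ratios of the pairs was 0.06 and Spearman's rho was 0.20. Without Cox4i2 they were 0.26 and 0.23. Between the populations within a genotype, CD41low/CD9low HSCs had a median ratio to HSCs of 1.035 for the nuclear members in WT and 1.134 in KO, beside 0.961 and 0.971 for all genes. The 7 counted mitochondrial genes had 0.806 in WT and 0.460 in KO, with 1 higher and 6 lower in CD41low/CD9low HSCs in either genotype. The populations were counted on different annotation releases, so these ratios used the 37140 genes in both.

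Among other genes of mitochondria, 4 lists of nuclear genes had median log2 ratios of -0.15 or lower in HSCs. The list of biogenesis genes, given after them, had -0.01. The 77 genes of the mitochondrial ribosome, which translates the mitochondrial messages, had a median log2 KO/WT ratio of -0.21, with 1 above 1.5 and 2 below 1/1.5, and in CD41low/CD9low HSCs of -0.06, with 2 and 3. For the 17 genes of pyruvate dehydrogenase and the citric acid cycle, which feed the chain with NADH and succinate, it was -0.18 with 0 and 0 in HSCs and 0.00 with 0 and 1 in CD41low/CD9low HSCs. Protein import genes had -0.15 with 0 of 24 past either limit in HSCs, and -0.08 with 0 above 1.5 and 1 below 1/1.5 of 23 in CD41low/CD9low HSCs. Complex IV assembly and cytochrome c genes had -0.15 with 1 and 0 of 19 in HSCs, and 0.02 with 3 and 1 of 19 in CD41low/CD9low HSCs. Relative to genes of similar length, the HSC medians were -0.11 for the ribosome, -0.16 for pyruvate dehydrogenase and the citric acid cycle, -0.06 for import and -0.03 for complex IV assembly, beside -0.07 for the nuclear members. The background for the counts past 1.5-fold is the same 14.1% and 12.7% in HSCs and 13.5% and 14.3% in CD41low/CD9low HSCs.

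The 20 genes of mitochondrial biogenesis and mitochondrial genome expression had medians of -0.01 and -0.03, with 2 above 1.5 and 0 below 1/1.5 in each pair. In HSCs the 2 were Ppargc1a, the coactivator PGC-1alpha, with 57 counts in WT and 180 in KO and a ratio of 3.898 (2.879 to 5.347), and Mterf3, which acts on mitochondrial transcription and ribosome assembly, with 1291 and 1581 counts and a ratio of 1.511 (1.403 to 1.628). In CD41low/CD9low HSCs they were Slirp, which stabilizes mitochondrial messages, with 194 and 528 counts and a ratio of 1.814 (1.536 to 2.150), and the related coactivator gene Ppargc1b, with 98 and 258 counts and a ratio of 1.755 (1.386 to 2.238). In the other pair, the ratios were 1.041 for Ppargc1a, 0.985 for Mterf3, 0.828 for Slirp and 1.121 for Ppargc1b. The genes above 1.5 thus differed between the pairs. Ppargc1a had 1.12 and 4.32 CPM in WT and KO HSCs and 6.44 and 6.69 CPM in WT and KO CD41low/CD9low HSCs. The WT HSC library was thus the lowest for this gene. Tfam, which packages and transcribes mitochondrial DNA, had 0.876 (0.838 to 0.915) and 0.939 (0.869 to 1.014). In the other lists, the copper chaperone gene Cox17 had 1.518 and Cox20 1.419 in HSCs, where Mrpl12 had 0.615, Mrps6 0.657, Timm9 0.678, Timm8a1 0.714, Dlst 0.763 and Mdh2 0.769. In CD41low/CD9low HSCs, the copper chaperone gene Sco2 had 2.339, Timm10 1.469 and Dlat 0.804, and Cox10 had 0.581, Pdhx 0.575, Mrps2 0.577, Mrps35 0.598 and Timm8b 0.591.

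Promoter sequences from 250 bases before to 50 bases after the start (RefSeq) were found for 74 of the 94 nuclear members, less than the 80% needed, so shares of promoter motifs are not compared with those of other genes.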

How the data were processed

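Per the labels and the methods, the authors prepared stranded poly(A) mRNA libraries, sequenced paired ends, used TopHat 2.0.10 for alignment to mm10 (GRCm38), processed the alignments with Samtools and deposited HTSeq counts of whole reads on Ensembl genes, without normalization. The HTSeq version, strand setting and annotation release are not given in the sources used here. Lines for unassigned reads were left out of the gene counts. Each pair was scaled by the median of ratios, as DESeq does, with size factors of 1.111 and 0.900 for WT and KO HSCs, and of 0.817 and 1.225 for WT and KO CD41low/CD9low HSCs. The method was tested on simulated data. Exon lengths, coordinates and transcripts were those of GENCODE M21, in which 95.0% of the genes were found.

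The members and gene lists were chosen with earlier results of these data known. Named were the mitochondrial genes, listed core subunits and isoforms, nuclear members past 1.5-fold with at least 50 counts, and, of each other list, the 2 genes of largest log2 ratio with at least 50 counts. Tfam, the genes at the ends of a range and those whose intervals lay on opposite sides of 1 were named after their values were seen. Alternatives were TMM (edgeR 4.0.16 in R 4.3.3), scaling by total counts with or without the mitochondrial genome, size factors over all 4 libraries, a filter of 50 counts or none, a pseudocount of 1, looser and stricter (2-fold) cutoffs, a lower cutoff of 0.6, subunits only, and the correction for exon length. The software was Python 3.11.15 with numpy 2.4.6, pandas 2.3.3, scipy 1.17.1 and Biopython 1.88. Protein sequences were not used here. The values of 1 named gene are not reported here.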

Additional observations from a re-analysis of the deposited data

Results flagged for a closer look

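For 15 members, 12 nuclear and 3 mitochondrial, the counting intervals of the KO/WT ratio lay on opposite sides of 1 in the populations. The share of all genes with such intervals is not given here, so the count cannot be read as a trait of the members. In HSCs the interval lay wholly below 1 for 33.7% and wholly above 1 for 35.6% of all genes tested. In CD41low/CD9low HSCs these shares were 30.4% and 31.1%. The values below are those of HSCs and of CD41low/CD9low HSCs, in this order. The difference between the populations was not tested, since each ratio rests on 1 library per genotype. Of the mitochondrial genes, mt-Nd2 had 1.53 and 0.756, mt-Nd5 had 1.68 and 0.881, and mt-Cytb had 1.38 and 0.857, all higher in KO HSCs and lower in KO CD41low/CD9low HSCs. Among the nuclear genes, the complex I subunit gene Ndufb2 went the same way, with 1.12 and 0.807, and the other 11 went the opposite way. The assembly factor genes Ndufaf1 and Ndufaf5 had 0.816 and 1.65 and 0.803 and 1.77. Of the complex I subunit genes, Ndufv1 had 0.81 and 1.08, Ndufa9 had 0.92 and 1.16, Ndufb5 had 0.826 and 1.12, and Ndufs6 had 0.795 and 1.18. The complex III core protein gene Uqcrc2 had 0.805 and 1.13, and the complex IV genes Ndufa4 and Cox6b2 had 0.869 and 1.11 and 0.755 and 1.4. The ATP synthase genes Atp5e and Atp5h had 0.927 and 1.16 and 0.837 and 1.11. Relative to genes of similar merged exon length, the HSC ratios of Atp5e and Ndufa9 rose above 1, to 1.012 and 1.003. That of Ndufa4 rose to 0.9945.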

How the results depend on the processing

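No paired analysis was possible because each group has 1 library, and for the same reason no library could be left out. The nuclear median log2 ratio, the mitochondrial median and their difference lay between -0.24 and -0.20, 0.44 and 0.48, and 0.67 and 0.69 in HSCs and between -0.07 and -0.06, -0.19 and -0.18, and -0.13 and -0.12 in CD41low/CD9low HSCs under TMM, both total-count scalings, size factors over all 4 libraries, the count filters and the pseudocount. The correction for exon length moved them in HSCs, to -0.07, 0.68 and 0.74, and with the principal transcript's length, chosen after seeing the data, to -0.04, 0.70 and 0.73. With it 6, or 5 with the principal transcript, mitochondrial genes were above 1.5 in HSCs and 1 nuclear gene, with merged exons, was below 1/1.5. In CD41low/CD9low HSCs both forms gave a mitochondrial median of -0.06 over the 7 counted genes. They dropped mt-Atp6, whose KO count of 0 gives no finite log2 ratio, and so left 0 mitochondrial genes below 1/1.5. The mitochondrial gene below 1/1.5 in each pair had few counts, and 0 were left with at least 50 counts, with the 7 counted genes alone (chosen after seeing the data) and, in CD41low/CD9low HSCs, with at least 1 count required in each library. At the looser cutoff, a ratio of 5 to 4, 18 nuclear genes were lower, 6 mitochondrial genes higher and 2 lower in HSCs, and 8 nuclear genes were higher, 11 lower and 2 mitochondrial genes lower in CD41low/CD9low HSCs. At 2-fold, 0 mitochondrial genes were higher in HSCs, and 0 nuclear genes were higher and 1 lower in CD41low/CD9low HSCs. The shares of all genes past these 2 cutoffs, or past 1.5-fold after the length correction, are not given here. These counts therefore cannot be read as a trait of the members. With subunits only, 2 nuclear genes were higher there. Depth limits what can be said of the alternative isoforms, which had few counts or 0.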
